A study of Mus musculus with 9 samples.

Results

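The 15-month libraries were set against both other ages, to describe which transcripts of mouse microglia peak or dip in middle age instead of moving steadily with age. Microglia had been sorted by flow cytometry from the brains of female, wild-type C57BL/6 mice at 6 months (labelled young), 15 months (middle-aged) and 23 months (old). Each age had 3 libraries, 9 in all, and each library pooled the cells of 3 mice before RNA extraction and a low-input cDNA kit. The labels name neither the sorting gate nor the day of each sort. All groups were untreated and of the same genotype, and the p-values below measure the spread between pools of mice. For each gene, the contrast was the mean log2 value at 15 months minus the average of the 6-month mean and the 23-month mean. It was computed for the 14956 of 22036 genes (67.9%) that reached a value of about 10 on the linear scale in 3 or more libraries. A positive contrast means only that 15 months lay above the midpoint of the end ages. A peak or a dip also needs the 15-month mean to lie outside both other means.

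Microglia are the resident macrophages of the brain. Immediate early genes are switched on within minutes of a stimulus, without new protein synthesis: FOS and JUN proteins pair as the AP-1 transcription factor, EGR, NR4A and KLF factors act beside them, and phosphatases and RNA-decay proteins such as DUSP1 and ZFP36 end the response. In microglia this programme answers to inflammatory and purinergic signals and is also known to be induced while tissue is dissociated for sorting. Heat shock genes encode chaperones that refold damaged protein and are driven by the factor HSF1.

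The libraries had high values for the defining microglial genes. Over the 9 libraries, Tmem119 ran from 15.20 to 15.52, Csf1r from 18.60 to 19.04 and Sall1 from 14.07 to 14.55 on the log2 scale. Neuronal Syt1 ran from 3.45 to 3.56 and oligodendrocyte Mog from 4.30 to 4.46. Neutrophil S100a8 was high, from 14.46 to 16.82, and Mrc1 of border macrophages ran from 13.51 to 14.69. One library stood apart from the others: 23-month replicate 3 lay at 29.9 on the first principal component (34.7% of the variance), where the other 8 ran from -14.4 to 5.90.

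No gene passed the test. With limma and Benjamini-Hochberg adjustment over the 14956 genes, 0 genes were higher (0%) and 0 lower (0%) at 15 months at an adjusted p under 0.05, and the lowest adjusted p, shared by 35 genes, was 0.405. At an unadjusted p under 0.05, 624 genes (4.17%) were higher and 557 (3.72%) lower, together 7.9% of those tested. The same libraries gave 299 genes (2%) past the adjusted threshold for 23 minus 6 months, and 2506 (16.8%) at an unadjusted p under 0.05. That difference has the larger standard error of the pair, by a factor of 1.15. The median size of the contrast was 0.07, against 0.10 for 23 minus 6 months, and the median SD between replicates of an age was 0.13. A contrast of over 0.5 in size was found for 62 genes, and of over 1 for 1 gene. That gene, the immunoglobulin segment Ighv5-12, is named after its value was seen, and its contrast of -1.25 had an SE of 1.77.

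Genes with an unadjusted p under 0.05 were mostly peaks and dips, which a contrast of this form favours. Of the 624 higher genes, 602 (96.5%) had their highest mean at 15 months and 22 (3.53%) rose in both intervals. Of the 557 lower genes, 531 (95.3%) had their lowest mean at 15 months, while 16 (2.87%) lay between rising means and 10 (1.8%) between falling ones. Over all genes tested, 29.8% had their highest and 28.6% their lowest mean at 15 months. All 3 libraries of 15 months lay above the other 6 for 267 genes (1.79%) and below them for 221 (1.48%). An exact rank test of 3 against 6 libraries has 84 splits and cannot give a two-sided p below 0.0238.

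Immediate early genes were the gene group with the most members high at 15 months. Of 55 tested members of the 3 immediate early lists, 27 (49.1%) were higher at an unadjusted p under 0.05 and 0 were lower, where 4.17% and 3.72% of all genes were. The median contrast of the 55 was 0.21, 50 of them were positive, and 41 (74.5%) had their highest mean at 15 months. Their median for 23 minus 6 months was 0.09. None of them passed the adjusted threshold, and no list was tested as a whole. The lists were chosen with earlier results of these data known, so the excess over all genes is not an independent finding.

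Fosb, an AP-1 subunit (chr7:19302696-19310051 in mm10), had the smallest p of the contrast. It read 10.89, 11.18 and 11.01 at 6 months, 11.34, 11.83 and 11.67 at 15 months, and 10.49, 10.75 and 10.62 at 23 months. The 15-month libraries were all above the others, and the 23-month libraries were all below the 6-month ones. The contrast was 0.79 ± 0.12 (SE), a 1.73-fold difference, with an unadjusted p of 4.76e-05 and an adjusted p of 0.405 (limma, Benjamini-Hochberg). In the authors' deposited table Fosb had a log2 fold of 0.65 for 15 over 6 months (adjusted p 0.00432) and of -1.08 for 23 over 15 months (adjusted p 3.32e-07). Those comparisons share the 15-month libraries.

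Egr1, a zinc-finger factor induced by growth factor signalling, read 13.82, 14.05 and 14.03 at 6 months, 14.07, 14.37 and 14.38 at 15 months, and 13.57, 13.57 and 13.67 at 23 months. The lowest 15-month library stood only just above the highest 6-month one, and the gap to 23 months was wider. Its contrast was 0.49 ± 0.09, and the authors' deposited table gave 0.34 for 15 over 6 months (adjusted p 0.124) and -0.78 for 23 over 15 months (adjusted p 3.19e-06).

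**Figure D1:**
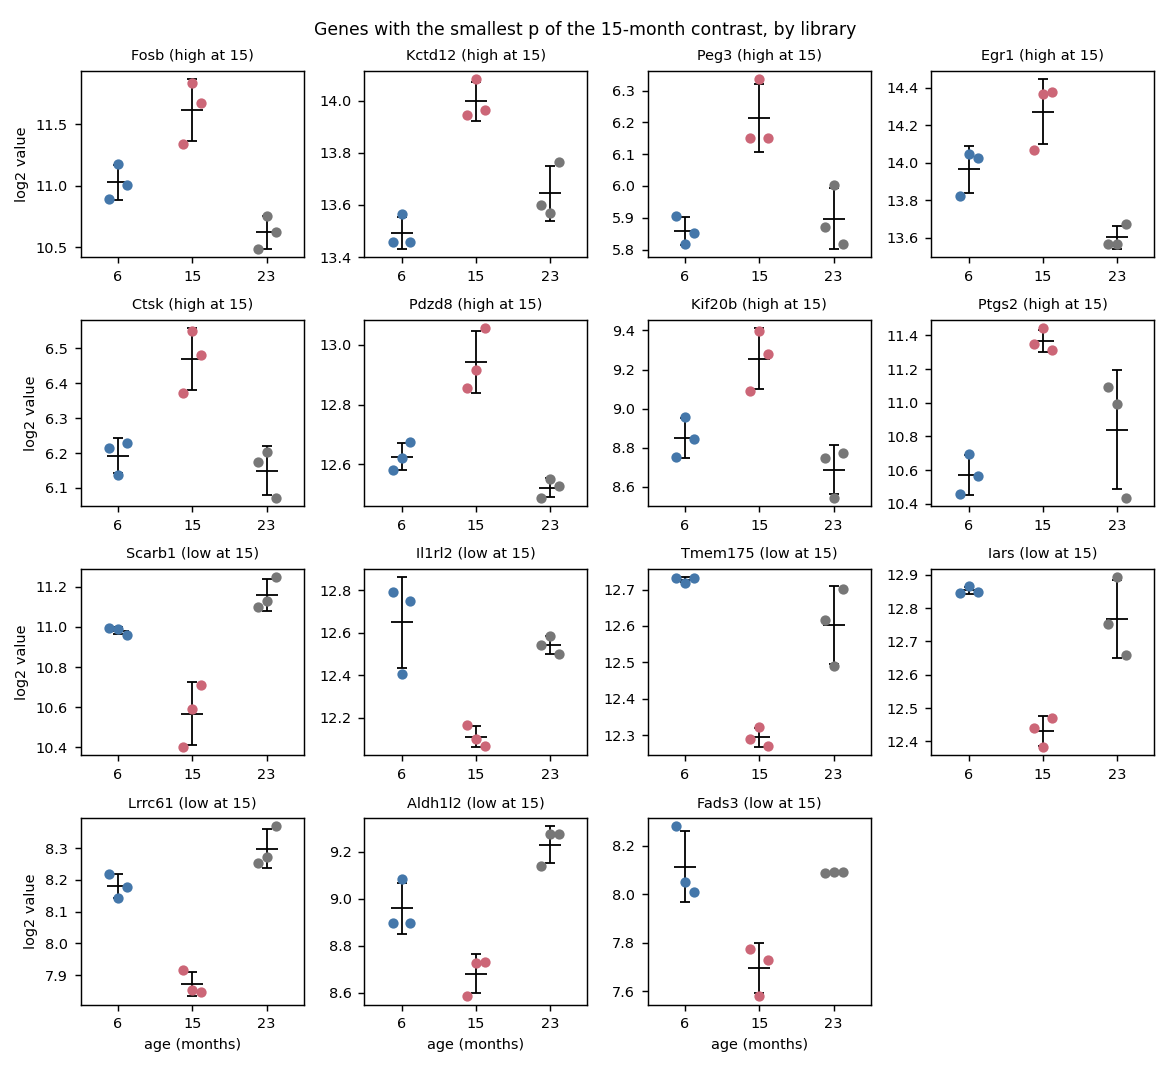
Log2 values of 15 genes with the smallest p of the 15-month contrast among those without overlap, 8 high and 7 low at 15 months, by age in months. Points are libraries and bars the mean ± SD of 3; the 15-month points lie wholly above or below the other 6 because the genes were chosen so, and the distance to the nearest other library varies from gene to gene.

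The promoter of Fosb is shown beside those of Dusp1 and Hspa1a, the feedback phosphatase and the chaperone described next, because these 3 genes were high in every 15-month library. Each sequence holds the 250 bases before the RefSeq start (GRCm38.p6, the build of mm10), 5′ to 3′ on the gene's strand, with matches to 5 searched motifs in capitals. They lie at chr7:19310046-19310295, chr17:26508473-26508722 and chr17:34972157-34972406, all on the minus strand.
Fosb: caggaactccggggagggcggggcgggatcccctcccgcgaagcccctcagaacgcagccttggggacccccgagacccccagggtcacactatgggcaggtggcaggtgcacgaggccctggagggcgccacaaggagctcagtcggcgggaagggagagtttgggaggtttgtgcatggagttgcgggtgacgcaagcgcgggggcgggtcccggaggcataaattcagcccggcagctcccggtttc
Dusp1: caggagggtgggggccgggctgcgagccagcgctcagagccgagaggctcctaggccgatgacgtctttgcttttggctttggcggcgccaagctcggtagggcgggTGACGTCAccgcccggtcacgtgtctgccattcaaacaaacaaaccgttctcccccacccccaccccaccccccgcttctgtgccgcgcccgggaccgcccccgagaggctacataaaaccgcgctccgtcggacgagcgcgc
Hspa1a: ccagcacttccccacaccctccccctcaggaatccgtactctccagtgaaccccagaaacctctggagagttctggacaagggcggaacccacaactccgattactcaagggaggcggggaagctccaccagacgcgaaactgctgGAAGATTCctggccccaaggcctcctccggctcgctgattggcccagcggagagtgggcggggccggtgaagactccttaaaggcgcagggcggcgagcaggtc
The motifs, searched on both strands, were the cAMP response element TGACGTCA, the AP-1 site TGANTCA and the serum response element. The heat shock element GAANNTTC and a short form of the kappa B site, GGGNNTTCC, were searched too. Longer kappa B forms were not searched, so the kappa B counts cover this form only. None of the matches overlaps another in these windows. The capitals of Dusp1 are a cAMP response element at bases -143 to -136 and those of Hspa1a a heat shock element at -104 to -97. The Fosb window held none of these letters. The cAMP response element occurred in 4 of 44 immediate early genes with a RefSeq promoter (9.09%), against 1.55% of all 32851 promoters of that length. In the same 44, the AP-1 site occurred in 1 (2.27%, against 6.75% of all promoters), the serum response element in 2 (4.55%, against 1.47%), the heat shock element in 2 (4.55%, against 6.69%) and the kappa B site in 2 (4.55%, against 4.98%). A heat shock element occurred in 5 of 19 heat shock genes (26.3%), against 6.69% of all promoters, the AP-1 site in 3 (15.8%), the kappa B site in 1 (5.26%), and the other two motifs in 0. The list shares count 1 promoter per gene, while the shares over all promoters count every start, 32851 for 27025 genes. These matches are letters in a window and carry no measurement of binding.

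Among the AP-1 genes, 6 of 13 (46.2%) were higher at an unadjusted p under 0.05 and 0 lower, with a median contrast of 0.24. Jun read 11.53, 11.64 and 11.56 at 6 months, 11.84, 12.06 and 11.89 at 15 months, and 11.34, 11.31 and 11.65 at 23 months, so no 15-month library overlapped the rest. Fos, the most abundant of the named AP-1 genes on this scale, had a contrast of 0.46 ± 0.13. Its 15-month values of 17.41, 17.81 and 17.39 overlapped the highest 6-month value of 17.41.

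Of the EGR, NR4A and KLF genes, 9 of 12 (75%) were higher and 0 lower, with a median contrast of 0.36. Klf2, a factor that restrains inflammatory activation, read 11.30, 11.76 and 11.56, then 11.76, 12.17 and 11.92, then 11.03, 11.16 and 11.35 at 6, 15 and 23 months. Its contrast was 0.59 ± 0.13, and the gap between the lowest 15-month and the highest 6-month library was small. Klf4, a related factor, had a contrast of 0.49 ± 0.12, with 6 months (up to 12.39) reaching into the 15-month range of 12.28 to 12.49 and 23 months (up to 11.76) well below it.

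Of the feedback and signalling genes, 12 of 30 (40%) were higher and 0 lower, with a median contrast of 0.19. Dusp1, which dephosphorylates MAP kinases, read 13.62, 14.15 and 13.83 at 15 months, at most 13.39 at 6 months, and 13.06, 13.39 and 13.54 at 23 months. The 15-month libraries were above all others by a small margin over 23-month replicate 3, and the contrast was 0.59 ± 0.14. Rhob, a small GTPase, had a contrast of 0.46 ± 0.11, and Ppp1r15a, which directs dephosphorylation of eIF2 alpha, one of 0.39 ± 0.11. Both had all 15-month libraries above the other 6.

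The mean deviation of the 55 immediate early genes from their own average was 0.10, 0.28 and 0.11 in the 15-month libraries. It was -0.24, -0.04 and -0.11 at 6 months and -0.10, -0.09 and 0.07 at 23 months. Replicate 2 was the highest of the 15-month libraries, and 23-month replicate 3 came close to the lower pair of them. Without 15-month replicate 2, 16 of the 55 were higher and 0 lower, where the shares over all genes were 3.28% and 2.29%. In the feedback list 12 became 6 without that library. Without 23-month replicate 3, 33 of the 55 were higher and 0 lower, where the shares over all genes were 5.56% and 6.16%. With each of the 9 libraries left out in turn, the shares over all genes ran from 3.17% to 5.56% higher. The shares lower ran from 2.29% to 6.16%. Later counts without a library are to be read beside these shares.

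**Figure D2:**
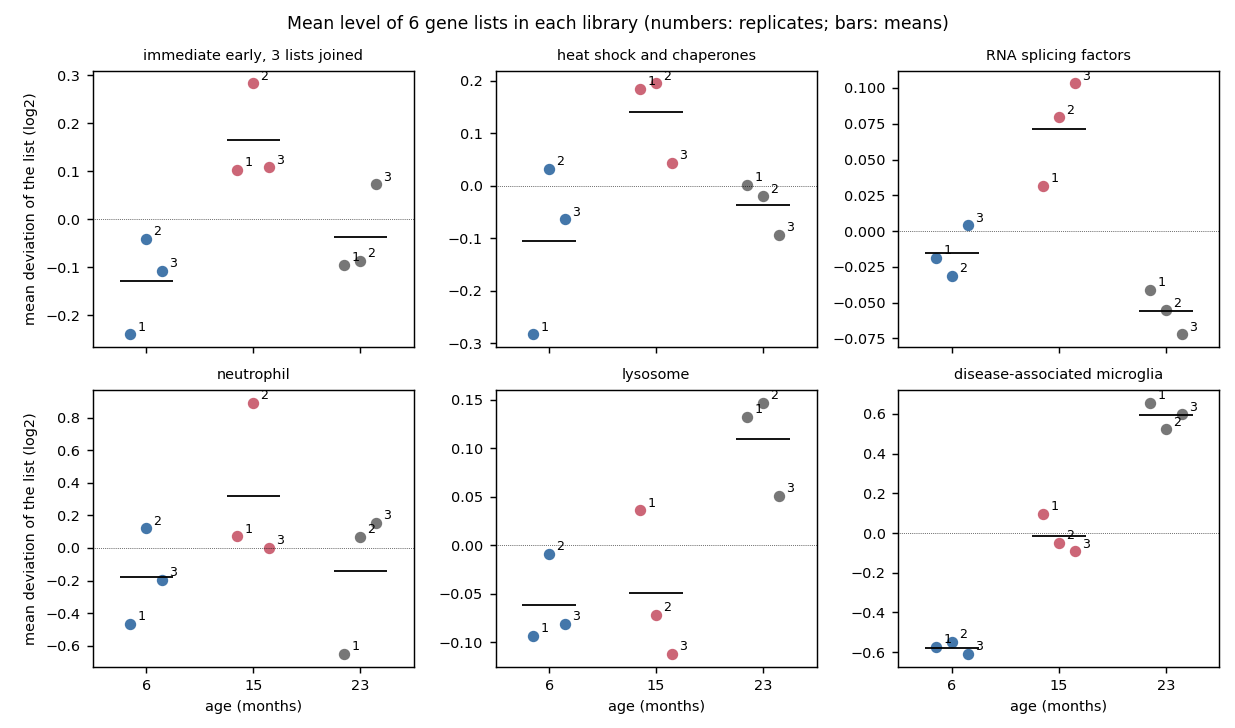
Mean deviation (log2) of the members of 6 gene lists from each gene's average over 9 libraries, by age in months, with replicate numbers and bars for the mean of each age. Immediate early, heat shock and splicing lists are highest in the 15-month libraries, the neutrophil list is high in 15-month replicate 2, and the disease-associated list climbs with age.

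Prostaglandin synthase Ptgs2 and the potassium channel tetramerization gene Kctd12, which encodes an auxiliary subunit of GABA-B receptors, were high at 15 months outside those lists. Ptgs2 (chr1:150100031-150108227) read 10.46, 10.70 and 10.56 at 6 months, 11.35, 11.44 and 11.31 at 15 months, and 11.09, 10.99 and 10.44 at 23 months. Its contrast was 0.66 ± 0.14. The 23-month libraries were spread, with replicate 3 down at the 6-month level. The authors' deposited table gave Ptgs2 1.04 for 15 over 6 months (adjusted p 5.96e-11) and -0.47 for 23 over 15 months (adjusted p 0.237). Kctd12 (chr14:102976581-102982637) read 13.46, 13.56 and 13.46, then 13.94, 14.08 and 13.97, then 13.60, 13.57 and 13.77, a contrast of 0.43 ± 0.07. All 3 of its 15-month libraries lay above the rest, and the authors' deposited table gave 0.62 (adjusted p 1.18e-06) and -0.43 (adjusted p 0.0258) for the same pairs of ages. Pdzd8, a protein of endoplasmic reticulum contact sites, had a contrast of 0.37 ± 0.07, and the mitotic kinesin Kif20b one of 0.49 ± 0.10. Peg3, an imprinted zinc-finger gene, and Ctsk, the protease cathepsin K, were the low-level genes of the set. Peg3 ranged from 6.15 to 6.34 at 15 months against 5.82 to 6.00 elsewhere, and Ctsk from 6.37 to 6.55 against 6.07 to 6.23. The authors' deposited table gave Peg3 0.32 for 15 over 6 months (adjusted p 0.0128) and -0.16 for 23 over 15 months (adjusted p 0.499). Ctsk had 0.61 (adjusted p 0.00919) and -0.18 (adjusted p 0.420) there.

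NF-kB and cytokine genes had positive median contrasts, but as lists they were low at 6 months, and their 15-month and 23-month values overlapped. The mean deviation of the cytokine list ran from -0.34 to -0.25 at 6 months, from 0.03 to 0.17 at 15 months and from 0.16 to 0.23 at 23 months. Its median was -0.09 for 15 minus 23 months and 0.48 for 23 minus 6 months. The NF-kB list ran from -0.15 to -0.10 at 6 months, from -0.03 to 0.16 at 15 months and from 0.05 to 0.08 at 23 months. Its median was 0.03 for 15 minus 23 months and 0.21 for 23 minus 6 months. Of 21 NF-kB subunit and feedback genes, 5 were higher and 1 lower at an unadjusted p under 0.05, with a median contrast of 0.06, and 3 were higher without 15-month replicate 2. Nfkbiz, an inducible nuclear regulator of NF-kB, read 12.32, 12.45 and 12.47, then 12.91, 13.07 and 12.82, then 12.67, 12.51 and 12.74. Its contrast was 0.41 ± 0.09, with no overlap. Nfkbia, the inhibitor that holds NF-kB in the cytoplasm, stood at 13.69, 13.93 and 13.53 at 15 months. That overlapped 13.68, 13.51 and 13.48 at 23 months, and 6 months was below, from 12.84 to 13.22. Of 29 cytokines and chemokines, 9 (31%) were higher and 0 lower. The interleukin gene Il6 read 9.13, 9.35 and 9.39 at 15 months against 9.09 at most in the other libraries, a contrast of 0.30 ± 0.09. Cxcl1, a neutrophil-attracting chemokine, had a contrast of 0.32 ± 0.10. Without 15-month replicate 2 the cytokine count was 2 of 29, where 3.28% of all genes were higher.

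Of 25 heat shock and chaperone genes, 10 (40%) were higher at 15 months at an unadjusted p under 0.05 and 1 was lower, with a median contrast of 0.16. Hsp90aa1, the inducible cytosolic HSP90, read 12.03, 12.53 and 12.54 at 6 months, 12.71, 13.02 and 12.72 at 15 months, and 12.14, 12.17 and 12.17 at 23 months, with a contrast of 0.55 ± 0.12. Hspa1a, an inducible HSP70, read 8.60, 9.13 and 9.01, then 9.32, 9.70 and 9.48, then 8.88, 8.54 and 8.98, with a contrast of 0.64 ± 0.15. It shares almost all of its sequence with Hspa1b, so the split of reads between these genes is uncertain. Dnaja1, an HSP40 co-chaperone, had a contrast of 0.53 ± 0.13. All 3 were highest in every 15-month library, and 6-month replicate 1 was the lowest or nearly the lowest library for each. The authors' deposited table gave Hspa1a 0.58 for 15 over 6 months (adjusted p 0.0326) and -0.68 for 23 over 15 months (adjusted p 0.0184). For the same pairs of ages it gave Hsp90aa1 0.43 (adjusted p 0.115) and -0.79 (adjusted p 7.83e-06). Dnaja1 had 0.46 (adjusted p 0.0773) and -0.62 (adjusted p 0.00166) there. The number higher was 6 of 25 without 15-month replicate 1 and likewise 6 without 15-month replicate 2. The shares over all genes higher in those fits were 4.91% and 3.28%.

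Splicing factors had smaller contrasts, with less overlap between ages. Of 29, 9 (31%) were higher and 0 lower, 8 had all 15-month libraries above the other 6 (1.79% of all genes did), and the median contrast was 0.14. Srsf1, an SR protein that promotes exon inclusion, read 9.75, 9.78 and 9.76, then 10.23, 10.17 and 10.21, then 10.15, 9.85 and 9.94, a contrast of 0.33 ± 0.09. Its 15-month libraries were close to each other and 23-month replicate 1 was nearest to them. Hnrnpu, a nuclear matrix RNA-binding protein, had a contrast of 0.28 ± 0.08, and Clk1, a kinase of SR proteins, one of 0.29 ± 0.08. The mean deviation of the list was 0.03, 0.08 and 0.10 at 15 months, -0.02, -0.03 and 0.00 at 6 months, and -0.04, -0.06 and -0.07 at 23 months.

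**Figure D3:**
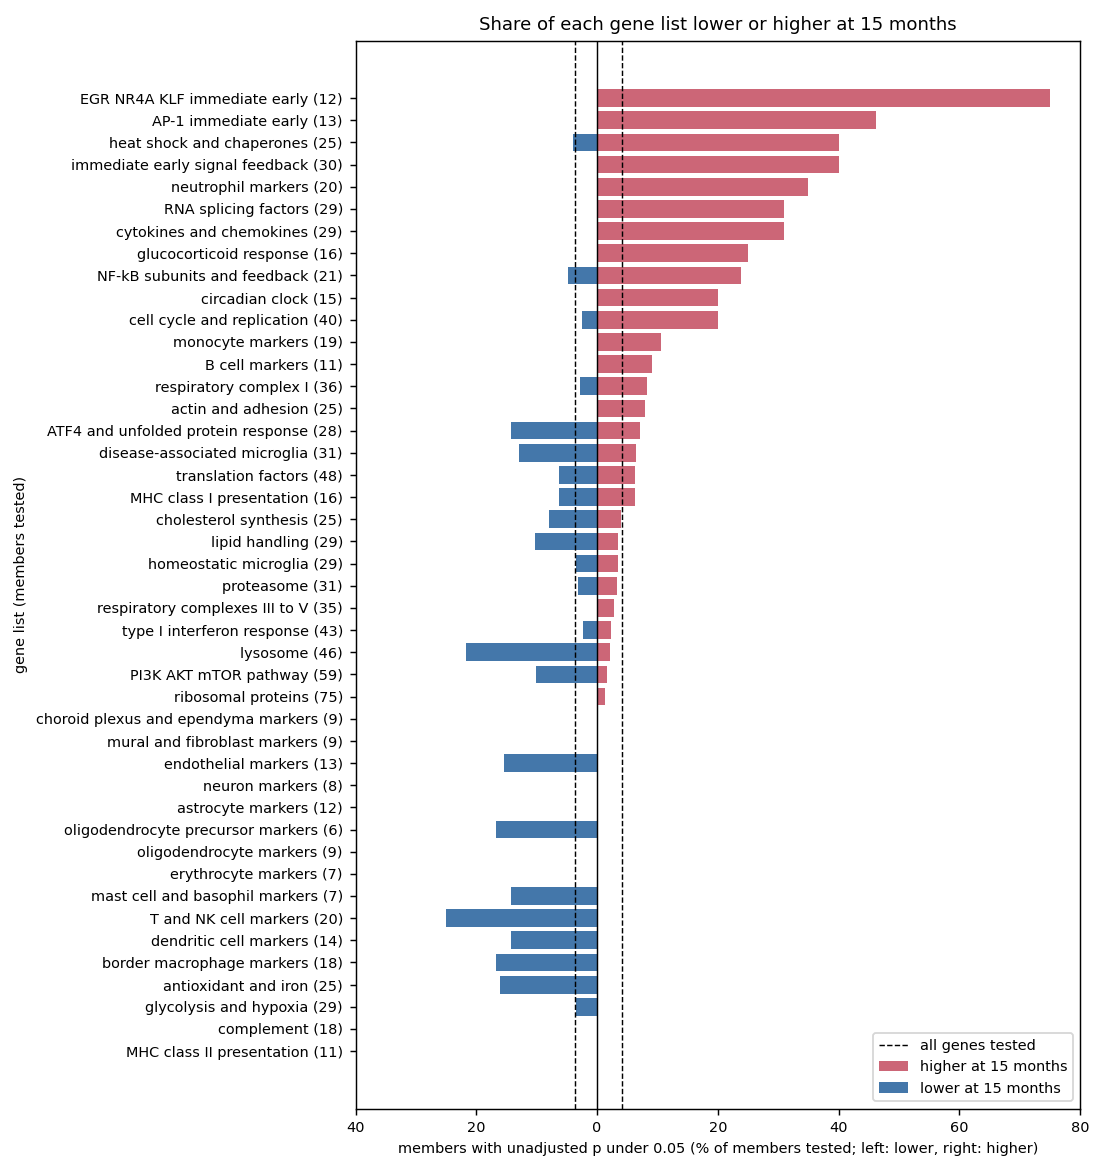
Share (%) of the tested members of each gene list with an unadjusted p under 0.05, higher at 15 months to the right and lower to the left, with the number tested in brackets. Dashed lines mark the shares over all genes, 4.17% higher and 3.72% lower; the 3 immediate early lists and the heat shock list reach furthest right.

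Neutrophil markers were highest in 15-month replicate 2, the library where the immediate early genes were also highest. Of 20 neutrophil genes, 7 (35%) were higher, 0 had all 15-month libraries above the other 6, and the median contrast was 0.55. S100a8, an abundant granulocyte calcium-binding protein, read 15.63, 16.82 and 15.67 at 15 months, 14.67, 15.35 and 14.89 at 6 months, and 14.46, 15.43 and 15.95 at 23 months, with a contrast of 0.91 ± 0.33. Its values at 15-month replicates 1 and 3 lay inside the range of 23 months, and replicate 2 was the highest of all. The log2 sum of the list ran from 18.41 to 19.19 at 6 months, from 19.00 to 20.12 at 15 months and from 18.17 to 19.16 at 23 months. Chil3 and Camp, further granulocyte genes, had contrasts of 0.78 ± 0.30 and 0.83 ± 0.33. Without 15-month replicate 2 the count was 0 of 20, without 6-month replicate 1 it was 1, without 6-month replicate 3 it was 4, without 23-month replicate 1 it was 3, and without 23-month replicate 3 it was 11. The shares over all genes higher in those fits were 3.28%, 3.22%, 3.17%, 3.97% and 5.56%. The part of neutrophil RNA in the immediate early, cytokine and heat shock values was not tested. The immediate early counts without 15-month replicate 2 are those given above. In bulk samples, fewer cells of a type and less RNA per cell cannot be told apart.

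**Figure D4:**
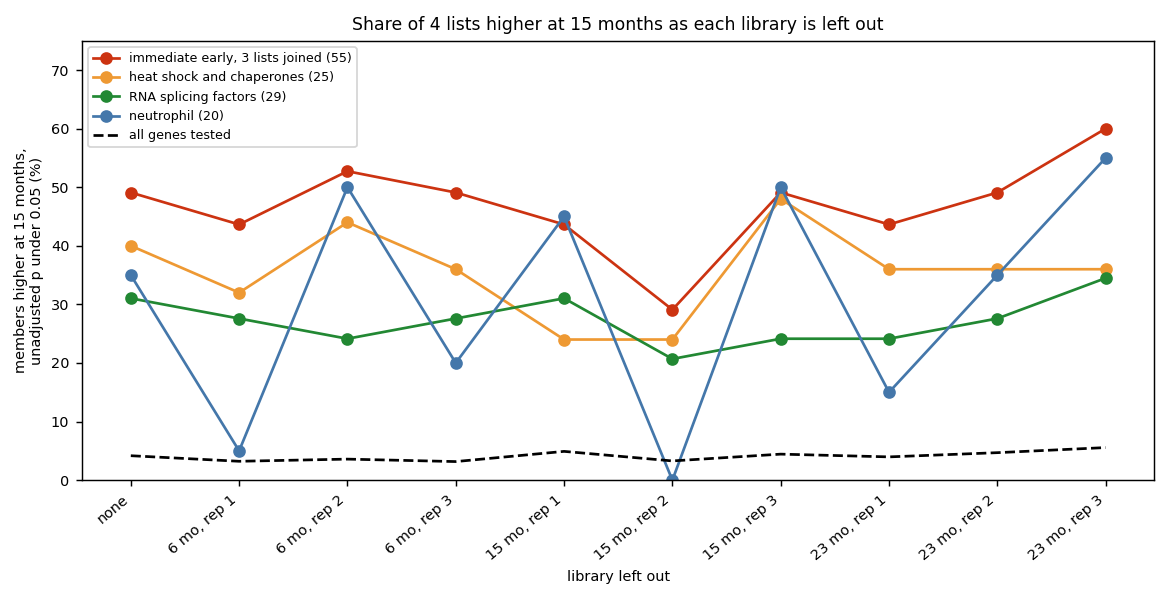
Share (%) of 4 gene lists with an unadjusted p under 0.05 and a higher value at 15 months, with all libraries and with each of the 9 left out in turn; the dashed line is the share over all genes tested. The neutrophil share falls to 0 without 15-month replicate 2, where the immediate early count is 16 of 55.

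Cell cycle genes leaned higher, 8 of 40 (20%) against 1 lower (2.5%), where 4.17% and 3.72% of all genes were. Their median contrast was 0.12. Tk1, a thymidine kinase of S phase, read 9.76, 9.64 and 9.68 at 15 months against 9.24 to 9.44 in the other libraries, a contrast of 0.35 ± 0.08. Ccna2, cyclin A, was at a low level, 5.84 to 5.89 at 15 months against 5.66 to 5.77. The count was 2 without 15-month replicate 2, 4 without 6-month replicate 1 and 4 without 6-month replicate 3, and 13 without 15-month replicate 3. The shares over all genes higher in those fits were 3.28%, 3.22%, 3.17% and 4.44%. Of 16 glucocorticoid-responsive genes, 4 were higher and 0 lower, and 2 were higher without 15-month replicate 2. Dusp1 is in both this list and the feedback list. Cebpb, a transcription factor of the acute phase response, ran from 9.43 to 9.95 at 15 months and from 9.11 to 9.69 at 23 months, which overlapped, against 8.71 to 8.75 at 6 months. Of 15 circadian clock genes, 3 were higher and 0 lower, with 1 higher without 15-month replicate 1 or 2 and 5 without replicate 3. Nr1d1, the repressor REV-ERB alpha, had a contrast of 0.46 ± 0.12, with 8.76 to 9.27 at 15 months overlapping 8.79 to 8.91 at 6 months and above 8.14 to 8.47 at 23 months.

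The genes with the smallest p among those low at 15 months belonged to no single list. Scarb1, the receptor that takes up cholesterol from high-density lipoprotein (chr5:125277087-125341094), read 10.99, 10.99 and 10.96 at 6 months, 10.40, 10.59 and 10.71 at 15 months, and 11.10, 11.13 and 11.25 at 23 months. The 15-month libraries were all below the tight 6-month values, and the contrast was -0.50 ± 0.09. The authors' deposited table gave Scarb1 -0.54 for 15 over 6 months (adjusted p 0.00859) and 0.71 for 23 over 15 months (adjusted p 0.00152). Il1rl2, the receptor for interleukin 36 (chr1:40324610-40367562), read 12.79, 12.40 and 12.75, then 12.16, 12.10 and 12.07, then 12.54, 12.58 and 12.50, a contrast of -0.48 ± 0.09. Its 15-month libraries lay close together, and the authors' deposited table gave -0.64 (adjusted p 0.000729) and 0.55 (adjusted p 8.45e-05). Tmem175, a lysosomal potassium and proton channel, read 12.29, 12.32 and 12.27 at 15 months against 12.49 to 12.73 elsewhere, and Iars, the cytosolic isoleucyl-tRNA synthetase, 12.44, 12.38 and 12.47 against 12.66 to 12.89. Their contrasts were -0.37 ± 0.07 and -0.38 ± 0.08. In the authors' deposited table Tmem175 had an adjusted p of 4.41e-08 for 15 over 6 months and 0.0778 for 23 over 15 months. Iars had 3.11e-07 and 0.0586 there.

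Aldh1l2, a mitochondrial folate enzyme, had a contrast of -0.41 ± 0.09, and Fads3, a fatty acid desaturase family member, one of -0.41 ± 0.09. Lrrc61 read 7.92, 7.85 and 7.85 at 15 months against 8.14 to 8.37 elsewhere. In the authors' deposited table Aldh1l2 had an adjusted p of 0.0831 for 15 over 6 months and 0.000332 for 23 over 15 months. Fads3 had 0.00698 and 0.0511 there, and Lrrc61 0.00232 and 0.000903. Over the 15 genes of the plot of values by library and 22 fits, the lowest adjusted p was 0.079 (limma, Benjamini-Hochberg).

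The lysosomal, ATF4 and unfolded protein response, and lipid handling lists had more low than high members, where 3.72% of all genes were lower and 4.17% higher. Their shares lower were 21.7%, 14.3% and 10.3%, and their shares higher 2.17%, 7.14% and 3.45%. For ATF4 and lipid handling these shares rest on few genes. All of these lists had a positive median for 15 minus 6 months, 0.02, 0.01 and 0.09 in that order. Their medians for 15 minus 23 months were -0.21, -0.03 and -0.19, so the list medians did not dip at 15 months. The mean deviation of the lipid handling list was at most -0.18 at 6 months, -0.11 to 0.04 at 15 months and at least 0.19 at 23 months. Of 46 lysosomal genes, 10 were lower and 1, Ctsk, higher, with a median contrast of -0.09. Gusb, a lysosomal glucuronidase, read 13.83, 13.63 and 13.76 at 15 months, overlapping 13.78 to 13.88 at 6 months and below 14.11 to 14.18 at 23 months. Grn, progranulin, had a contrast of -0.20 ± 0.07. The lysosomal count was 1 without 15-month replicate 2, 3 without 15-month replicate 3, 3 without 6-month replicate 2, 6 without 6-month replicate 3 and 4 without 23-month replicate 1. The shares over all genes lower in those fits were 2.29%, 3.95%, 3.05%, 2.84% and 3.76%. The low lean of the lysosomal list was thus not seen without 15-month replicate 2. Of 28 ATF4 and unfolded protein response genes, 4 were lower and 2 higher, and 2 were lower without 6-month replicate 2 or without 15-month replicate 2. Mthfd2 and Phgdh, enzymes of mitochondrial one-carbon metabolism and serine synthesis, had all 15-month libraries below the other 6, with contrasts of -0.41 ± 0.10 and -0.27 ± 0.08. Of 29 lipid handling genes, 3 were lower and 1 higher, with 5 lower without 15-month replicate 3 and 6 without 23-month replicate 2. Mgll, a lipase of monoacylglycerols, read 11.09, 11.01 and 11.09 at 15 months, just below 11.17 to 11.41 at 23 months and further below 11.59 to 11.62 at 6 months.

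Among other cell types, 5 of 20 T and NK cell markers (25%) and 3 of 18 border macrophage markers (16.7%) were lower. Both lists had 0 higher, and over all genes 3.72% were lower and 4.17% higher. Prf1, the pore-forming protein of cytotoxic lymphocytes, read 6.96, 6.74 and 6.87 at 15 months against 6.97 to 7.53 elsewhere. Cd8b1, a co-receptor chain, overlapped 6 months (6.22 to 6.26) at 6.11 to 6.22 and lay below 6.45 to 6.57 at 23 months. The T and NK count was 10 without 23-month replicate 1, where 3.76% of all genes were lower. Clec4n and Colec12, receptors on border macrophages, had contrasts of -0.48 ± 0.12 and -0.45 ± 0.12 with no overlap. They were the only 2 of the 18 markers with all 15-month libraries below the other 6. The median of the 18 was -0.30 for 15 minus 6 months, 0.11 for 15 minus 23 months and -0.42 for 23 minus 6 months. By these medians the list fell with age and did not dip at 15 months. The log2 sum of the border macrophage list ran from 17.20 to 17.29 at 6 months, 16.73 to 17.05 at 15 months and 16.60 to 16.96 at 23 months. That of the T and NK list ran from 12.56 to 12.61 and from 12.47 to 12.71 at the first pair of ages and was 12.65 or above at 23 months. The border macrophage count was 5 without 15-month replicate 1 and 5 without 23-month replicate 3. The shares over all genes lower in those fits were 3.83% and 6.16%. Monocyte markers had 2 higher and 0 lower of 19, dendritic cell markers 0 and 2 of 14, endothelial markers 0 and 2 of 13, B cell markers 1 and 0 of 11, mast cell and basophil markers 0 and 1 of 7, and oligodendrocyte precursor markers 0 and 1 of 6. Of the 2 monocyte markers, 1 was Chil3, which is also in the neutrophil list, and the other was an NR4A gene. Neuron, astrocyte, oligodendrocyte, mural, erythrocyte and choroid plexus lists had 0 members at an unadjusted p under 0.05 in either direction.

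The disease-associated microglia list differed mainly between the end ages. Its 31 members had a median contrast of -0.03 and a median of 0.87 for 23 minus 6 months, with 2 higher and 4 lower. The lower count was 8 without 15-month replicate 1, and 2 without 15-month replicate 2 or 3, 6-month replicate 2 or 3, or 23-month replicate 1. The share over all genes lower was 3.83% without 15-month replicate 1 and from 2.29% to 3.95% in the other fits named. Spp1, osteopontin, read 12.37, 12.45 and 12.52 at 6 months, 15.24, 14.68 and 14.49 at 15 months, and 16.15, 15.97 and 16.03 at 23 months. Its contrast of 0.56 ± 0.14 is that of a steady rise whose larger step came before 15 months, not of a peak. Fth1, the ferritin heavy chain, had a contrast of -0.68 ± 0.19 with 16.28, 16.48 and 17.30 at 15 months, so replicates 1 and 2 lay below the 6-month range of 16.60 to 16.95 and replicate 3 above it. The class I molecule H2-D1 had the same layout, with 14.30, 14.44 and 15.25 at 15 months, 14.45 to 14.85 at 6 months and 16.05 to 16.42 at 23 months. Igf1, a growth factor, read 11.48, 11.34 and 11.26 at 15 months, within 11.21 to 11.50 at 6 months and below 11.98 to 12.41 at 23 months.

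**Figure D5:**
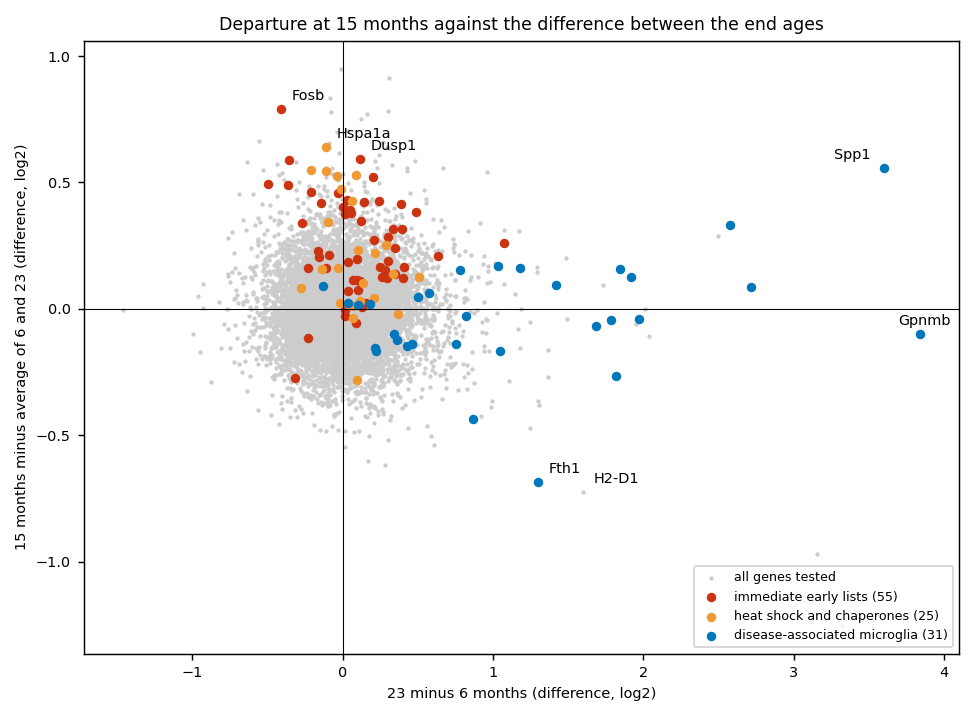
Contrast of 15 months with the average of 6 and 23 months against the difference of 23 minus 6 months (both log2), one point per gene tested. Immediate early and heat shock genes lie mostly above the horizontal line near a difference of 0, and disease-associated genes spread to the right along it.

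The remaining lists are given by their counts, beside shares over all genes of 4.17% higher and 3.72% lower. Homeostatic microglia genes had 1 higher and 1 lower of 29, type I interferon response genes 1 and 1 of 43, MHC class I genes 1 and 1 of 16, proteasome genes 1 and 1 of 31 and translation factors 3 and 3 of 48. Translation factors had 1 lower without 6-month replicate 1 or 2. Ribosomal protein genes had 1 higher of 75 and 0 lower, with a median contrast of 0.08. Respiratory complex I genes had 3 higher and 1 lower of 36, with 1 higher without 15-month replicate 1 or 2, and those of complexes III to V had 1 higher and 0 lower of 35. Cholesterol synthesis genes had 1 higher and 2 lower of 25, glycolysis and hypoxia genes 0 higher and 1 lower of 29, and actin and adhesion genes 2 higher and 0 lower of 25. Antioxidant and iron genes had 0 higher and 4 lower of 25, with 1 lower without 15-month replicate 2 and 2 without replicate 3. Complement (18 genes) and MHC class II (11 genes) had 0 in either direction. Fcrls, a receptor-like gene of homeostatic microglia, had a contrast of -0.18 ± 0.07, its 15-month values of 17.61 to 17.81 overlapping 17.58 to 17.76 at 23 months. The PI3K, AKT and mTOR list had 6 lower and 1 higher of 59, and its low count was 2 without 15-month replicate 1, 2 without 15-month replicate 2 and 3 without 23-month replicate 1. The shares over all genes lower in those fits were 3.83%, 2.29% and 3.76%. Rptor, the mTORC1 scaffold, had a contrast of -0.26 ± 0.09, its 15-month values of 13.54 to 13.91 overlapping 13.69 to 13.78 at 23 months.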

How the data were processed

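RNA of sorted microglia was measured in 9 libraries, 3 per age. The authors deposited a table of normalized values on a log2 scale; no label or header names the transformation, and low genes share a floor value, which compresses their folds. The submitters' processing notes list CASAVA, cutadapt 1.13, STAR 2.5.3, DESeq2 1.16.1 and mm10, without roles. The authors also deposited pairwise tables that hold, per the file headers, a mean normalized signal, log2 fold changes, a test statistic (score) and p-values; their signs were checked as later over earlier age. The authors' read counts were not used here, so depth per library is unknown and no interval for counting error is given.

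The contrast was fitted with limma 3.58.1 (R 4.3.3) over 3 ages with a variance trend, 6 residual degrees of freedom and Benjamini-Hochberg adjustment at 0.05. The script was tested on simulated data. Genes were named by rule: per direction, the 8 with the smallest unadjusted p among genes without overlap between 15 months and the other libraries and with a mean of at least log2 of 50 at the highest age, since none passed the adjusted threshold; and, for each list, the 3 members whose p was smallest. Unnamed gene models, pseudogenes and immunoglobulin or T cell receptor segments were left out, and a few genes that the rule selects are not reported here. The 44 gene lists (29 of pathways, 15 of other cells) hold 1092 genes, 1009 tested; symbols were matched exactly, so some members were not analysed here. Members and lists were chosen with earlier results of these data known. A list score is the mean deviation of its genes from their average over libraries. Coordinates are from GENCODE mouse release 21 (99.7% of symbols found) and promoters from RefSeq. The alternatives covered filters, scaling, pseudocounts, variance models, weights, a block, age spacing and leaving out each library; leaving out 15-month replicate 2 and 23-month replicate 3 together was chosen after seeing the data.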

Additional observations from a re-analysis of the deposited data

How the results depend on the processing

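Under every alternative to the filter, scaling, pseudocount, variance model, library weights and age spacing, limma called 0 genes in either direction after Benjamini-Hochberg adjustment. The lowest adjusted p among these was 0.183, with library weights, where 907 genes were higher and 812 lower at an unadjusted p under 0.05. Leaving out one library gave 0 to 5 genes called higher, and the same 0 to 5 in the peak shape, with 0 called lower. The unadjusted counts ran from 474 to 832 higher and from 343 (without 15-month replicate 2) to 921 (without 23-month replicate 3) lower. Without 15-month replicate 2 the 5 genes were Six4, Fign, Ighg1, Ak9 and Gm35549, and without 15-month replicate 3 the 1 gene was Adcy1. Without 15-month replicate 2 and 23-month replicate 3 together, 2 genes were called higher and had a peak shape, Six4 and Ighg1, and 21 of 55 immediate early genes were higher at an unadjusted p under 0.05. These genes are named after their values were seen.

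The labels number replicates within each age, and the residuals of same-numbered libraries correlated from -0.24 to 0.23, so the numbers were not taken to pair the libraries. With the replicate block, 0 genes were called, the lowest adjusted p was 0.107, and 633 genes were higher and 526 lower at an unadjusted p under 0.05. The neutrophil count was 14 of 20 with the block, 14 with library weights and 2 without the variance trend. The shares over all genes higher in these fits were 4.23%, 6.06% and 4.47%. With library weights, 14 of 40 cell cycle genes were higher. The PI3K, AKT and mTOR list then had 10 of 59 lower and lipid handling 6 of 29. The shares over all genes with these weights were 6.06% higher and 5.43% lower. Depth is unknown, so a difference in a low gene cannot be set against its counting error.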

Other observations

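Several low-level genes had a shared floor value in most libraries and a higher value in only a pair of the 15-month ones. Ighg1, an immunoglobulin constant region, read 6.25 and 6.26 in 15-month replicates 1 and 3 and 5.45 to 5.46 in the other 7 libraries, replicate 2 included. Six4, a homeobox gene, read 4.50 and 4.48 in the same replicates and 4.25 elsewhere. Adcy1, an adenylate cyclase, read 4.90 and 4.87 in replicates 1 and 2 and 4.58 to 4.59 elsewhere. These genes were picked after their values were seen, and no explanation was tested.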
